A study of Mus musculus with 52 samples.

Results

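Forkhead genes encode transcription factors that bind DNA through a shared winged-helix fold, the forkhead domain, and 44 of the 23043 genes kept from the RPKM tables belong to the family. They were chosen by their symbols alone (Fox, a letter from a to s, and a number) and not by any measured value, and the longest transcript of at least 250 bp stands for each gene. The data are ChIP-seq of H3K4me1, H3K4me2, and H3K4me3 from an immortalized line of MEFs (fibroblasts of mouse embryos) that has loxP sites in both copies of MLL2. FC/FC cells had received tamoxifen for 24 h, which excises part of MLL2 (Kmt2d), an H3K4 methyltransferase. By the study's methods, the drug was then washed out and cells grew for several more days before harvest, unless stated otherwise. F/F cells are the same line without tamoxifen (0 h). Drug and excision therefore go together in every comparison below and cannot be told apart. Each mark was mapped in 3 FC/FC and 3 F/F libraries (18 libraries), which the study's methods call independent experiments. The p-values measure the spread between these libraries.

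Members of the family act at very different places. FoxO factors (Foxo1, Foxo3, Foxo4, Foxo6) are kept out of the nucleus by insulin and growth factor signaling through AKT, and drive stress and cell cycle arrest genes when that signal is low. FoxC, FoxD, and FoxF factors pattern mesenchyme and mesoderm, the tissue that fibroblasts come from. Foxm1 drives the genes of the G2 phase and mitosis, FoxA factors open closed chromatin in endoderm, and many other members are confined to single lineages such as thymic epithelium or lens. Of the marks, H3K4me3 covers the promoters of active genes, H3K4me2 covers promoters and enhancers, and H3K4me1 covers the flanks of promoters and enhancers.

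The deposited RPKM give read density, scaled for length and depth, over each transcript with 500 bp added at either end. Libraries held 26714377 to 49990775 such reads, and those of H3K4me1 held more in FC/FC (31253262 to 38871331) than in F/F (26714377 to 30528079). Transcripts of Fox genes ran from 867 bp (Foxe3) to 540629 bp (Foxp2), and a promoter peak is spread over the whole length of a long gene, so levels are given beside the peaks called by the authors. H3K4me3 peaks reached the promoters of 11 of 12 fibroblast markers in all 6 libraries (Thy1 had none), with a summed H3K4me3 level of 84.5 to 85.1 RPKM in FC/FC and 81.3 to 85.0 RPKM in F/F libraries. They did so at 2 of 7 epithelial (Epcam, Cdh1), 0 of 6 haematopoietic, 1 of 5 endothelial, 2 of 6 neural (Sox2, Tubb3), 0 of 5 skeletal muscle, and 0 of 4 hepatocyte markers. H3K4me2 FC/FC replicate 1 is labelled with the catalogue number of the H3K4me1 antibody. Across transcripts, however, its Spearman correlation lay between 0.9879 and 0.9904 with the 5 remaining H3K4me2 libraries, but between 0.814 and 0.847 with those of H3K4me1, and the library was used under its H3K4me2 label. This library was the highest of 6 at 17 of the 25 Fox genes tested for H3K4me2 (68.0%), against 41.6% of all genes tested, and H3K4me2 tests, counts of genes without overlap, and counts of peak widths are given with and without it.

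The family divided by promoter state. A promoter was counted as marked when an authors' peak overlapped the 1 kb on either side of the start site of the longest transcript. H3K4me3 was present in all 6 libraries at 23 of 44 Fox promoters (53.0% of all 23043 genes). It was present in some libraries at 5 (Foxa1, Foxa2, Foxe1, Foxe3, Foxl2, against 3.26% of all genes). Another 9 (Foxd1, Foxd3, Foxd4, Foxi3, Foxn1, Foxn4, Foxp1, Foxr1, Foxs1) had H3K4me2 or H3K4me1 without H3K4me3 (11.1% of all genes), and 7 (Foxb1, Foxi1, Foxi2, Foxn3, Foxp3, and Foxr2 among them) had no peak (32.7% of all genes). As shares of the family these are 52.3%, 11.4%, 20.5%, and 15.9%. Whether these shares differ from those of all genes was not tested.

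By role group, H3K4me3 was present in all 6 libraries at 4 of 4 FoxO genes, 6 of 8 genes of mesenchyme and mesoderm, and 7 of 9 widely expressed and cell cycle genes, but at 1 of 3 FoxA genes and 5 of 20 genes of other lineages. Some of these regions also cover start sites of neighboring genes. The H3K4me3 region at Foxa3 (chr7:19023536-19026408) also covers the start site of Sympk, and the one near Foxh1 (chr15:76670565-76673517) covers the start site of Ppp1r16a and ends 617 bp short of the start site of Foxh1. The region at Foxl1 (chr8:121124098-121127077) likewise ends 608 bp upstream of its start site. Those at Foxd2, Foxf1, Foxj1, Foxj3, and Foxm1 cover their own start sites and overlap other genes too (Foxd2os, Fendrr, Rnf157, AA415398, and Rhno1).

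**Figure D1:**
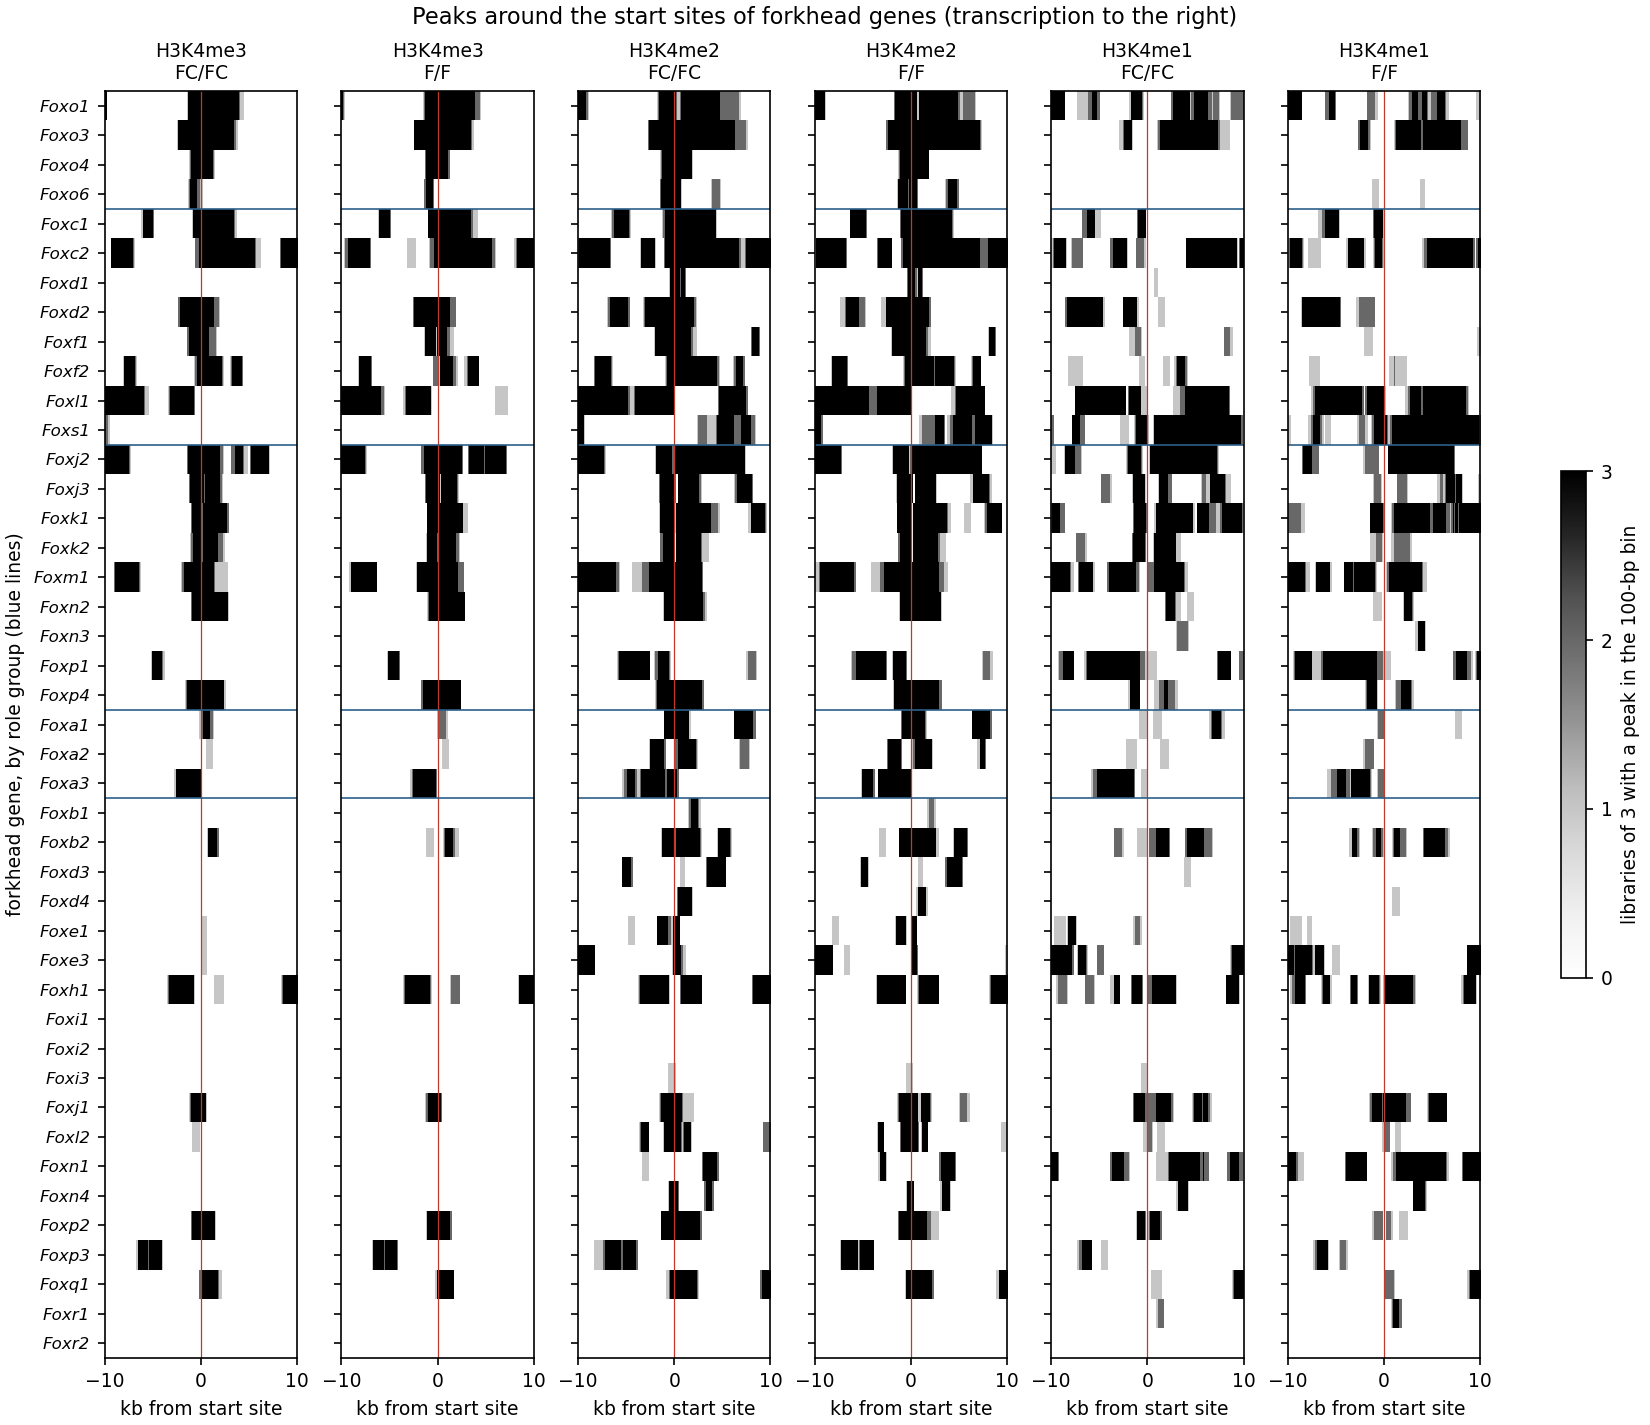
Number of libraries, of 3 per genotype, with a peak in each 100-bp bin from 10 kb upstream to 10 kb downstream of the start site of forkhead genes (rows, grouped by role), for H3K4me3, H3K4me2, and H3K4me1 in FC/FC (left of each pair) and F/F cells. Foxo1, Foxo3, Foxo4, and the widely expressed genes other than Foxn3 and Foxp1 have H3K4me3 at the start site (red line) in both genotypes, that of Foxo6 lies just upstream, while Foxi1, Foxi2, and Foxr2 have no peak in this window.

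Promoter sequence is shown for 6 members that represent these states. RefSeq promoter windows (250 bases before to 50 after the start, GRCm38, the genome of the mm10 tables) were matched for 26 of 44 Fox genes. Over these 300 bases, the median CpG count was 32.0 in the 11 Fox promoters with H3K4me3 in all libraries (22.0 over all 8759 such promoters), 19.0 in the 4 with H3K4me3 in some libraries (15.0 over all), 19.0 in the 6 with H3K4me2 or H3K4me1 alone (7.0 over all), and 6.0 in the 5 with no peak (3.0 over all). The observed to expected CpG ratio had medians of 0.83, 0.63, 0.66, and 0.23 in these Fox groups and 0.80, 0.60, 0.33, and 0.18 over all genes. The CpG counts of the groups with a peak overlapped, at 10 to 59, 10 to 27, and 8 (Foxn1) to 31 in the same order, and those of the group with no peak were 3 to 6. The 250 bases before the start site follow, 5′ to 3′, with every CpG in capitals. Foxc1, Foxd2, and Foxf2 had H3K4me3 in all libraries, Foxd1 had H3K4me2 without H3K4me3, Foxn1 had H3K4me1 in some libraries, and Foxr2 had no peak.
Foxc1, chr13:31806396-31806645, plus strand: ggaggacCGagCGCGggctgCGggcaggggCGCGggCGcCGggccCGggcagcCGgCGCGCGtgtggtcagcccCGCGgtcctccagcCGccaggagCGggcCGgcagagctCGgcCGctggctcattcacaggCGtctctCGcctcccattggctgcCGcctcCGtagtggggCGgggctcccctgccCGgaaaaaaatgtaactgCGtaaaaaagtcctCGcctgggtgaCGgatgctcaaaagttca
Foxd2, chr4:114908899-114909148, minus strand: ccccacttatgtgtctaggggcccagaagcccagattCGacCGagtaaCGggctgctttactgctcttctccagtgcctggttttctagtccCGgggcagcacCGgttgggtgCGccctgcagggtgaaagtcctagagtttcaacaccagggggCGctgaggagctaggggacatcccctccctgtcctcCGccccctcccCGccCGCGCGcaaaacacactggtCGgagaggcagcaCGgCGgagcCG
Foxf2, chr13:31625566-31625815, plus strand: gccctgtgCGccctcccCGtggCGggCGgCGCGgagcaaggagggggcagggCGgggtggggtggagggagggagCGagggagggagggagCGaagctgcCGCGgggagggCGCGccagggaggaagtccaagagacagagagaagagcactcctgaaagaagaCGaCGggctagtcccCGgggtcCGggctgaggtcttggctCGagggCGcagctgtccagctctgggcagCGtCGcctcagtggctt
Foxd1, chr13:98353995-98354244, plus strand: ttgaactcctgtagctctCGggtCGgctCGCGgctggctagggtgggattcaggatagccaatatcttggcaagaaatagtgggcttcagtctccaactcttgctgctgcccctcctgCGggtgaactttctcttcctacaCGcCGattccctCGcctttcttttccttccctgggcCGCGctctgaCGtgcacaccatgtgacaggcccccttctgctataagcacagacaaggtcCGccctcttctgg
Foxn1, chr11:78386609-78386858, minus strand: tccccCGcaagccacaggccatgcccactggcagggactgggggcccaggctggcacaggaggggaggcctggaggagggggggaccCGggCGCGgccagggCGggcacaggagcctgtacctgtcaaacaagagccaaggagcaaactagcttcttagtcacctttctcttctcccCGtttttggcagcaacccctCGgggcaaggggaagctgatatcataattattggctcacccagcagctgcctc
Foxr2, chrX:153118538-153118787, plus strand: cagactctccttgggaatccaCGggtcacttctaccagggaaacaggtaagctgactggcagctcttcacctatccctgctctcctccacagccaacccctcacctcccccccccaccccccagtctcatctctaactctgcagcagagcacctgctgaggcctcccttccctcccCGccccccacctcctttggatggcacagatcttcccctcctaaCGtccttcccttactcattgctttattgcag
These stretches held 29, 16, and 21 CpGs at Foxc1, Foxd2, and Foxf2, 12 at Foxd1, 7 at Foxn1, and 3 at Foxr2. The forkhead motif TGTTTAC, searched on both strands of the 300-base windows, was found at 1 of 26 Fox promoters (Foxa1; 3.85%, against 3.65% of 32851 promoters). The shorter TGTTTG was found at 4 (Foxa2, Foxi2, Foxj3, Foxn1; 15.4%, against 18.2%). The motifs do not overlap, and a match is only a match of letters.

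No Fox promoter lost or gained a peak in FC/FC cells. With lost meaning a peak in 0 FC/FC and 3 F/F libraries, and gained the reverse, 0 of 44 did so for H3K4me1, H3K4me2, or H3K4me3. Over all 23043 genes the shares lost were 0.126%, 0.104%, and 0.0304% for these marks, and the shares gained were 0.447%, 0.0694%, and 0.0391%. Nearest to a change were Foxe1, the thyroid forkhead gene, with H3K4me1 peaks at the promoter in 2 FC/FC and 0 F/F libraries, Foxf1 with the same counts, and Foxr1 with H3K4me1 in 1 FC/FC and 3 F/F libraries. H3K4me1 peaks were constant over 6 libraries at 12 Fox promoters (37.9% of all genes), variable at 19 (22.3%), and absent at 13 (39.3%). H3K4me2 peaks were constant at 32 (60.5%), variable at 3 (Foxd3, Foxi3, Foxs1; 4.11%), and absent at 9 (35.2%). H3K4me3 peaks were constant at 23 (53.0%), variable at 5 (3.19%), and absent at 16 (43.8%).

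The width of these promoter peaks, summed where several reached the window, set a few members apart. The widest H3K4me3 belonged to Foxc2, a regulator of lymphatic and mesenchymal development, at 5877, 6853, and 6268 bp in FC/FC and 6371, 6492, and 6977 bp in F/F libraries. This was wider than at 97.6% of the promoters with H3K4me3 in all libraries, and the genotypes overlapped. Foxo3 (6055 ± 242 bp in FC/FC and 6008 ± 125 bp in F/F, SD, n = 3 each) and Foxo1 (5527 ± 264 and 5678 ± 422 bp, SD, n = 3 each) followed, above 96.8% and 95.6% of promoters. At the other end, Foxo6, the FoxO gene best known from brain, had 1136 ± 279 bp in FC/FC and 924 ± 70 bp in F/F cells, and Foxb2 had 1083 ± 113 and 1434 ± 419 bp (SD, n = 3 each). The median over the 23 Fox promoters was 3086 bp, against 2857 bp over 12205 promoters.

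At 6 of 32 Fox promoters with constant H3K4me2, the H3K4me2 peaks of every FC/FC library were wider than those of every F/F library (Foxa1, Foxd1, Foxd4, Foxe1, Foxe3, Foxn4; 10.2% of all such promoters), and at 0 they were narrower (1.09%). At Foxd4 the widths were 1441, 1518, and 1510 bp in FC/FC and 988, 829, and 1084 bp in F/F libraries. At Foxn4, which acts in retina and spinal cord progenitors, they were 1019, 1128, and 1199 bp in FC/FC and 862, 777, and 859 bp in F/F libraries. Without FC/FC replicate 1 the count was 17 of 32 (57.2% of all such promoters), with 0 narrower (1.27%). For H3K4me3, Foxf2 was wider in all FC/FC libraries (2947, 2907, and 2711 bp in FC/FC, 2093, 1821, and 2270 bp in F/F; 1.33% of all promoters). Foxj2 was narrower (3300, 3606, and 3783 bp in FC/FC, 4275, 4093, and 4220 bp in F/F; 3.24%). For H3K4me1, Foxk2 was wider at 1 of 12 promoters (7.65%) and 0 were narrower (3.52%). H3K4me2 libraries held 31514831 to 49990775 reads in FC/FC and 36376215 to 48504887 in F/F, and the part of depth in these widths was not tested. FC/FC replicate 1 had the fewest H3K4me2 reads (31514831) and the fewest bases under H3K4me2 peaks (104415085).

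Long members have marked start sites other than that of the longest transcript. Foxn3, a repressor linked to cell cycle checkpoints, had no peak at the start of its longest transcript (position 99450074 of chromosome 12). Start sites in GENCODE M21 lie 56277 bp downstream (99393797) and far upstream (99563536), and both had H3K4me3 in all 6 libraries with a score of 3100, the value MACS gives to p-values too small to be computed. Foxp1, which acts in lung, heart, and lymphocyte development, had H3K4me1 and H3K4me2 but no H3K4me3 at the start of its longest transcript (99435345 of chromosome 6), while H3K4me3 was present in all 6 libraries at 99028298, 407047 bp downstream. Foxp2 showed the reverse order: H3K4me3 marked its first start site (14901349 of chromosome 6), and H3K4me1 and H3K4me2 without H3K4me3 marked the one 284157 bp further on. With any of these start sites allowed, 26 Fox genes had H3K4me3 in all 6 libraries, the added ones being Foxn3, Foxp1, and Foxp3. The share of all genes under this rule was not computed. With start sites of deposited transcripts alone, 24 Fox genes did so (53.7% of all genes). The Foxp3 site, from GENCODE, lies 6032 bp upstream (7573644 of chromosome X). Its other start sites had no peak of any mark. The Foxp3 window overlaps those of Ccdc22 and Ppp1r3fos, and whether the upstream peak belongs to Foxp3 was not tested. With any start site allowed, 0 promoters were lost or gained for any mark.

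By level, the highest H3K4me3 over a Fox gene was at Foxc2. Its H3K4me3 was 23.3, 23.2, and 27.0 RPKM in FC/FC and 24.9, 24.6, and 21.4 RPKM in F/F libraries, rank 260 of 23043 genes, and the genotypes overlapped. Foxc1, which acts with Foxc2 in the mesoderm and the eye, had 11.3, 8.17, and 11.1 RPKM in FC/FC and 10.9, 7.98, and 8.38 RPKM in F/F libraries. Foxd2, active in the mesenchyme of face and kidney, had 7.47, 4.92, and 7.80 RPKM in FC/FC and 7.39, 4.70, and 5.68 RPKM in F/F libraries. Foxc2 and Foxc1 also led in H3K4me2, with Foxc2 at 13.3, 10.1, and 11.04 RPKM in FC/FC and 10.8, 8.33, and 10.2 RPKM in F/F libraries. Foxc1 had 9.64, 8.17, and 8.42 RPKM of H3K4me2 in FC/FC and 8.07, 8.09, and 8.23 RPKM in F/F libraries. Foxb2 came next with 7.85, 5.83, and 5.17 RPKM in FC/FC and 6.93, 5.74, and 6.91 RPKM in F/F libraries. At all these genes the FC/FC and F/F ranges overlapped for both marks.

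H3K4me1 had another order. Foxh1, the SMAD partner in Nodal signaling, was highest with 5.17, 4.79, and 4.64 RPKM in FC/FC and 5.04, 4.91, and 5.04 RPKM in F/F libraries (rank 88 of 23043). Its window overlaps that of Kifc2, and these reads carry no strand. Foxn1, which is required in thymic and hair follicle epithelium, and Foxs1, a gene of perivascular and neural crest cells, followed. Foxs1 had 2.80, 2.89, and 2.55 RPKM of H3K4me1 in FC/FC and 3.48, 3.62, and 2.84 RPKM in F/F libraries, with no H3K4me3 peak at its promoter in any library. The lowest H3K4me1 (0.118 RPKM) and H3K4me3 (0.0822 RPKM) levels lay at Foxr2 (means of 6 libraries). Lowest for H3K4me2 was Foxp3, the regulatory T cell factor. It had 0.0337 ± 0.0043 RPKM in FC/FC and 0.0374 ± 0.0125 RPKM in F/F cells (SD, n = 3 each). Foxr2 followed for H3K4me2, with 0.054 ± 0.0054 RPKM in FC/FC and 0.0337 ± 0.0007 RPKM in F/F cells (SD, n = 3 each). Next came Foxi1, of inner ear and kidney, with 0.0319 ± 0.0075 RPKM in FC/FC and 0.0564 ± 0.0138 RPKM in F/F cells (SD, n = 3 each).

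**Figure D2:**
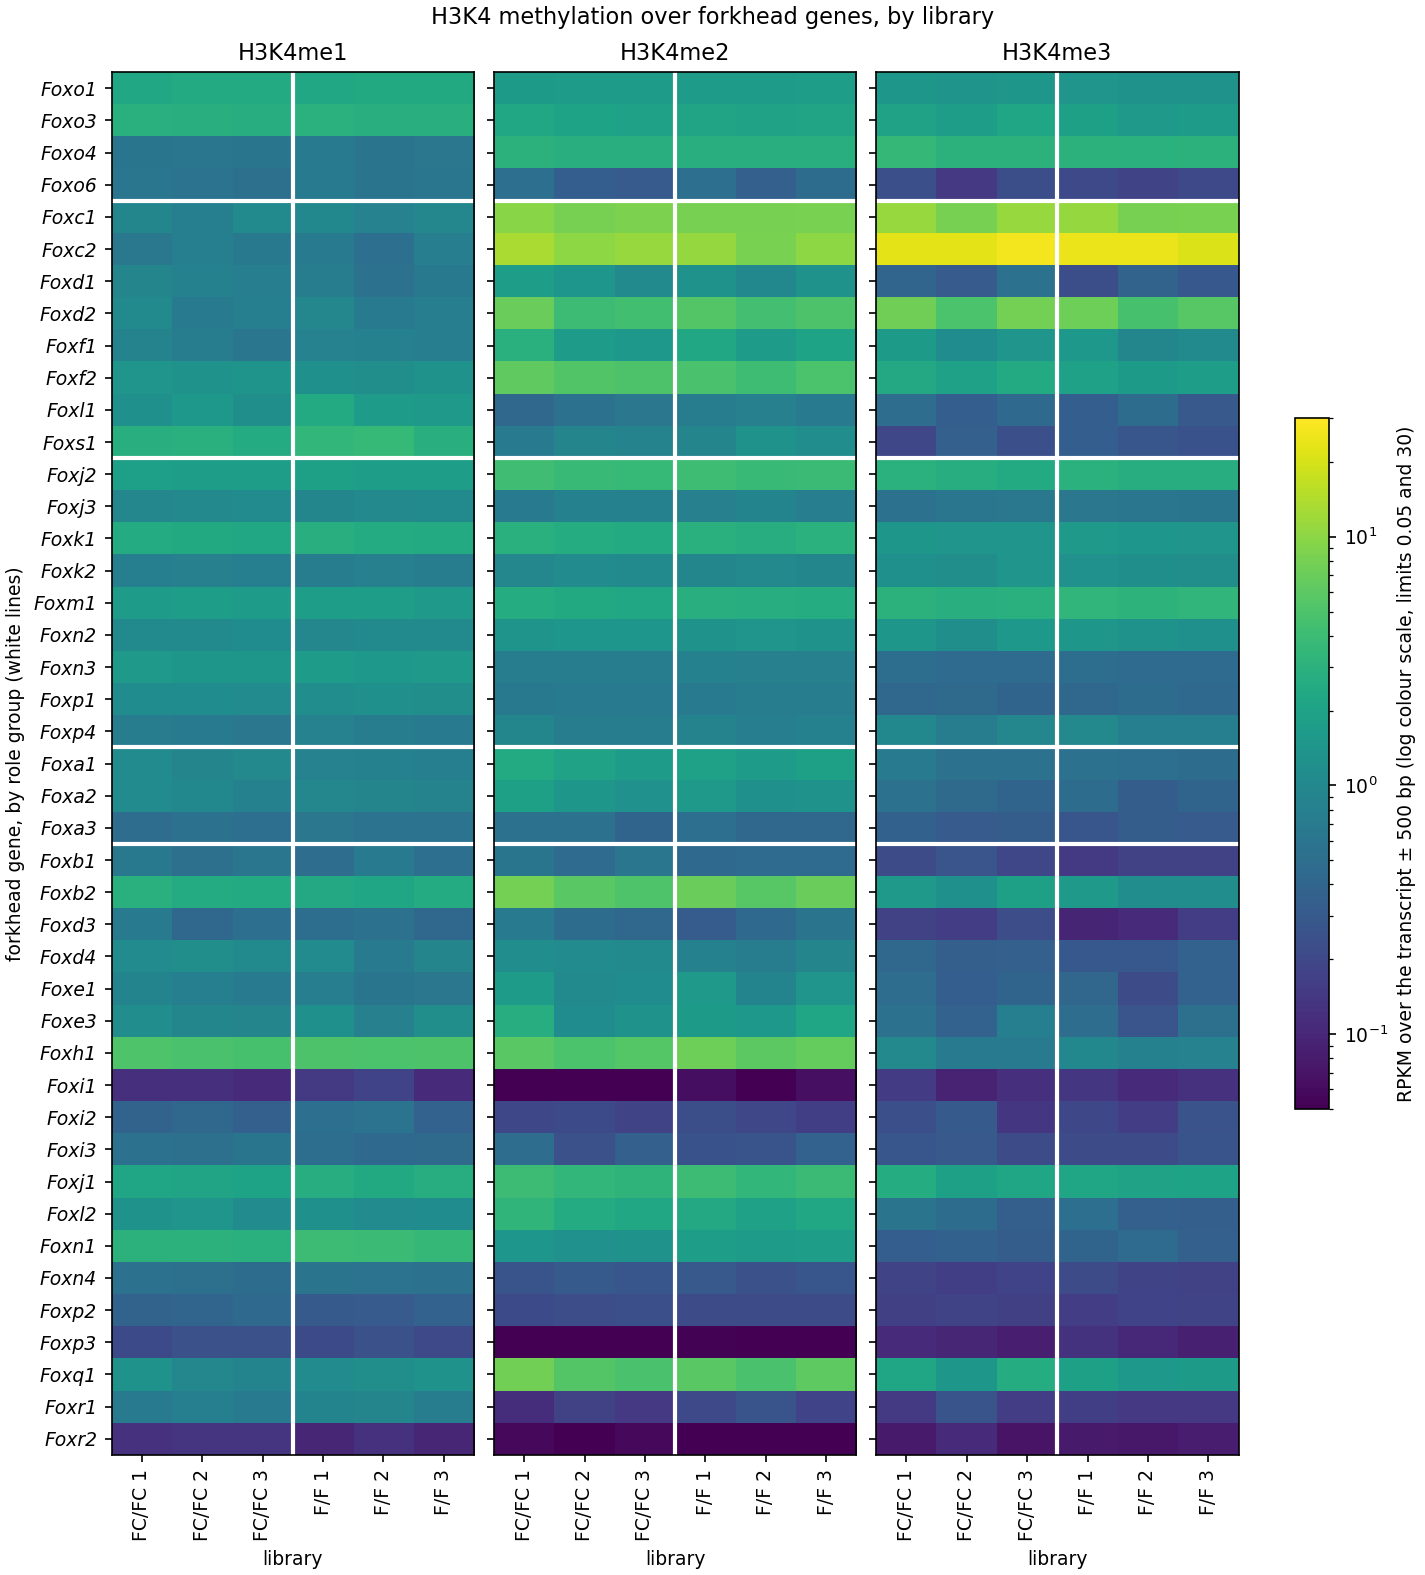
RPKM of H3K4me1, H3K4me2, and H3K4me3 (color, log scale) over forkhead genes (rows, grouped by role) in 3 FC/FC and 3 F/F libraries per mark (columns). Foxc2 is brightest for H3K4me3 (21.4 to 27.0 RPKM) and H3K4me2, Foxh1 for H3K4me1 (4.64 to 5.17 RPKM), and the color of a row differs little between genotypes.

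Levels were compared between genotypes with limma, for genes over 1 RPKM in 3 or more of the 6 libraries of a mark, on log2(RPKM + 0.1) and p-values adjusted over all genes tested. For H3K4me1, 20 of 44 Fox genes were tested and 0 passed an adjusted p of 0.05 (0 of 8567 genes, 0.0%), with 4 at an unadjusted p under 0.05 (Foxj1, Foxl1, Foxn1, Foxs1; 25.0% of all genes). For H3K4me2, 25 were tested and 1, Foxn1, passed (214 of 9986 genes, 2.14%, of which 1.55% were lower and 0.591% higher in FC/FC). For H3K4me3, 16 were tested and 0 passed (0 of 9073 genes, 0.0%), with 2 at an unadjusted p under 0.05 (Foxf2, Foxm1; 3.73% of all genes). By limma-voom on the recovered reads, 730, 360, and 0 of all genes passed for these marks. The median log2 change of the Fox genes tested was -0.03 for H3K4me1, 0.02 for H3K4me2, and 0.09 for H3K4me3, against -0.0029, 0.07, and 0.01 over all genes tested. Without H3K4me2 FC/FC replicate 1, 4 Fox genes passed for H3K4me2 (Foxe3, Foxh1, Foxm1, Foxn1, all lower), among 2954 of all genes (8.55% lower and 21.3% higher in FC/FC), and the median was -0.07, against 0.06 over all genes. In ChIP of a cell population, fewer cells with a mark and less of it per cell cannot be told apart.

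**Figure D3:**
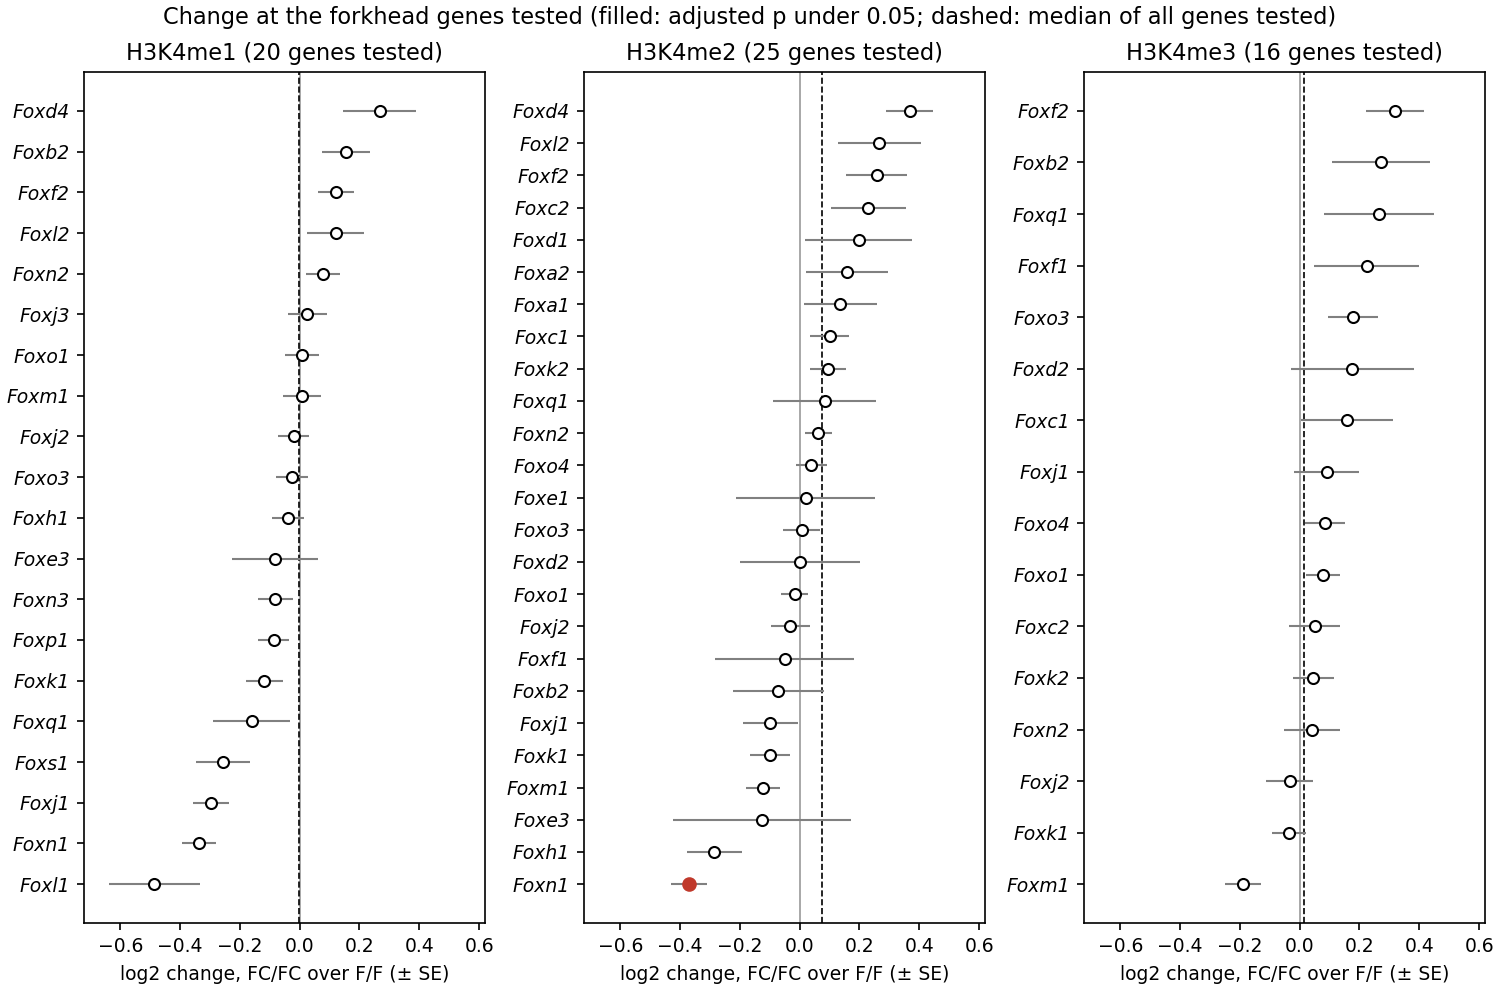
Log2 change in RPKM (FC/FC over F/F, with SE) of each forkhead gene tested for H3K4me1 (20 genes), H3K4me2 (25), and H3K4me3 (16). The filled point is Foxn1 for H3K4me2 (-0.37), the 1 gene past the adjusted threshold, and the dashed line is the median of all genes tested.

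Foxn1 (chr11:78357577-78386608, minus strand) was the Fox gene that passed, and its H3K4me2 fell in FC/FC cells. Its H3K4me2 was 1.46, 1.27, and 1.32 RPKM in FC/FC and 1.81, 1.69, and 1.81 RPKM in F/F libraries. All FC/FC values lay below all F/F values, as at 8.43% of the genes tested. The log2 change was -0.37 (SE 0.06, limma adjusted p = 0.037), and -0.42 without FC/FC replicate 1 (limma adjusted p = 0.0044). The call was lost without FC/FC replicate 2 (-0.33, limma adjusted p = 0.18) or 3 (-0.36, 0.13), and without F/F replicate 1 (-0.35, 0.21), 2 (-0.40, 0.13), or 3 (-0.36, 0.23).

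H3K4me1 over Foxn1 was also lower in all FC/FC libraries. It was 3.06, 3.04, and 2.92 RPKM in FC/FC and 3.97, 3.95, and 3.55 RPKM in F/F libraries, again with no overlap (18.7% of genes tested). The log2 change of -0.34 (SE 0.06) missed the threshold (limma adjusted p = 0.065), and passed under quantile normalization (0.042), with libraries centred on medians (0.044), in a single fit of 18 libraries (0.023), and by limma-voom (0.0021). It kept its sign and did not pass in the remaining 5 of 9 processing alternatives, or in 6 of 6 fits with 1 library left out. Over all genes, the count past the threshold ran from 0 to 730 across the processing alternatives. H3K4me3 over Foxn1 was 0.341 ± 0.0176 RPKM in FC/FC and 0.403 ± 0.054 RPKM in F/F cells (SD, n = 3 each), too low to be tested. Foxn1 has no H3K4me2 or H3K4me3 peak at its promoter in any library, and an H3K4me1 peak there in 1 FC/FC and 2 F/F libraries.

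H3K4me1 peaks covered 62.7%, 61.3%, and 68.9% of the 29032 bp of Foxn1 in FC/FC and 80.2%, 82.0%, and 78.4% in F/F libraries, with no overlap between genotypes. Coverage was lower in all FC/FC libraries at 8.52% of the 12304 genes with H3K4me1 peaks in all 6 libraries, and at 5 of 18 such Fox genes (Foxk1, Foxn1, Foxn3, Foxn4, Foxp4). One intronic H3K4me1 region, chr11:78373723-78375629, 10979 bp downstream of the start site, was called in 0 FC/FC and 3 F/F libraries (scores 77.4, 95.0, and 138 in F/F, where the score is -10 log10 of the MACS p-value). The central 300 bases of this region (plus strand, GRCm38) are printed with CpG in capitals, since it is the H3K4me1 region lost within the gene.
Foxn1, chr11:78374527-78374826, plus strand: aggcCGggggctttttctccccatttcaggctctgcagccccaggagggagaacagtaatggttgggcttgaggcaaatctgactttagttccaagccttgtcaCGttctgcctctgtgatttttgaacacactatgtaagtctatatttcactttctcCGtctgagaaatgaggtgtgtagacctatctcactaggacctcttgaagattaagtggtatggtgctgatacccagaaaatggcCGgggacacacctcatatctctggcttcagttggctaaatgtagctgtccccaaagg
H3K4me2 peaks covered 18.9% to 22.0% of Foxn1 in FC/FC and 20.3% to 22.0% in F/F libraries, in the same 3 places. The strongest of these, chr11:78362316-78365507, scored 3100 in all 6 libraries, and an H3K4me3 region within it (chr11:78363009-78364934) was called in 1 FC/FC and 3 F/F libraries (1.06% of all H3K4me3 regions). An H3K4me2 region 2495 bp upstream of the start site (chr11:78389103-78390062) was also called in 1 FC/FC and 3 F/F libraries (2.98% of all H3K4me2 regions).

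**Figure D4:**
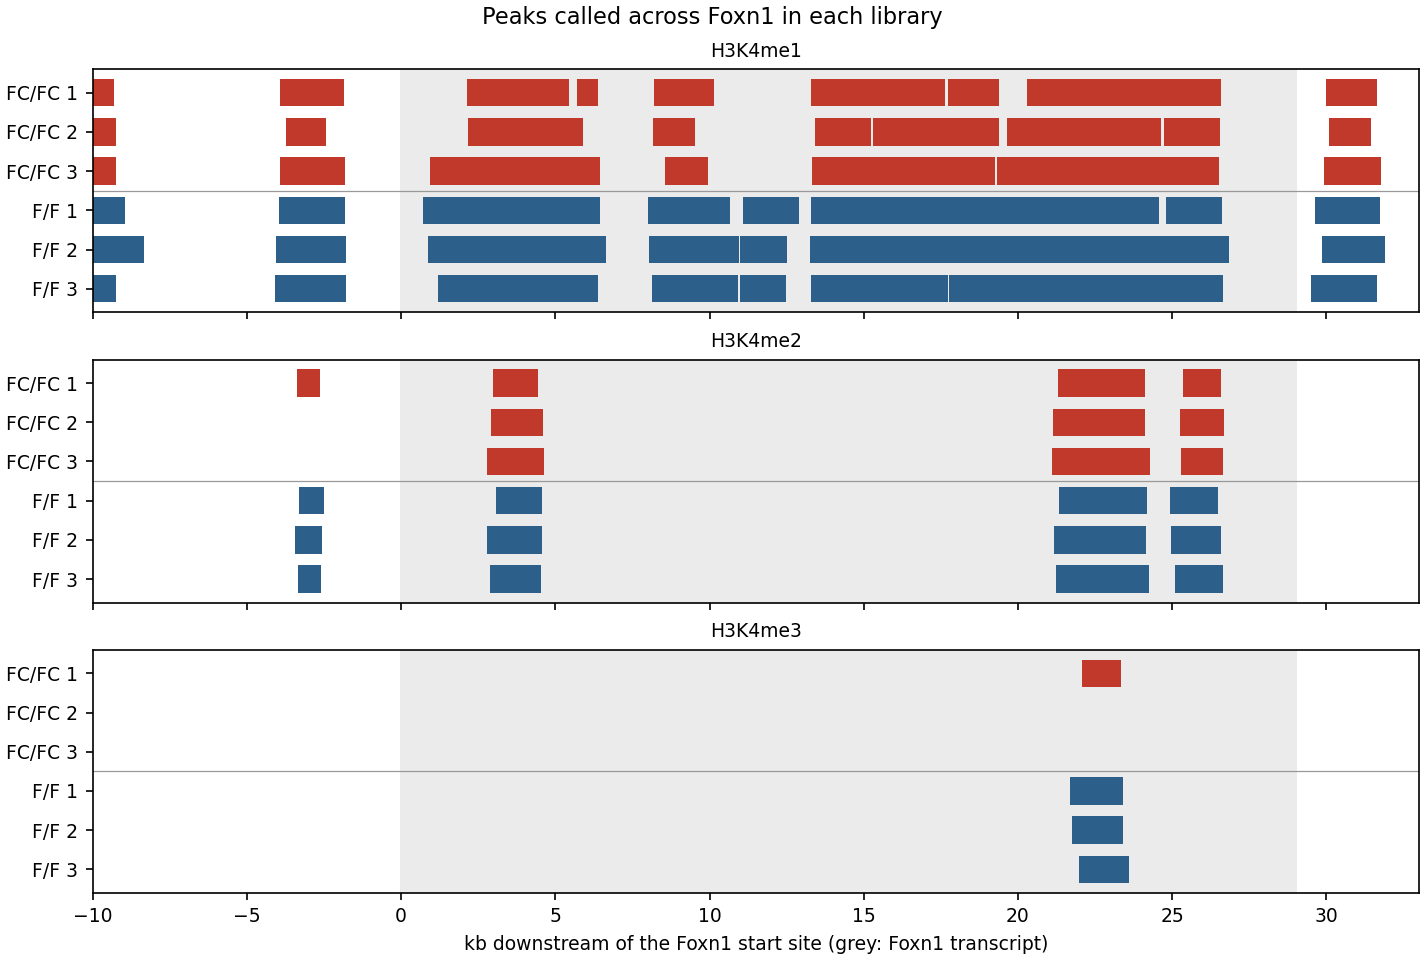
Peaks of H3K4me1, H3K4me2, and H3K4me3 across Foxn1 (x axis, kb from the start site in the direction of transcription; grey, the transcript), 1 line per library, FC/FC (red) above F/F (blue). H3K4me1 peaks cover 61.3% to 68.9% of the gene in FC/FC and 78.4% to 82.0% in F/F libraries, and the gap near 11 kb is present in all FC/FC libraries.

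Changes of other Fox genes did not pass. Foxl1, a gene of the mesenchyme of the gut, had the largest H3K4me1 change at 1.23, 1.52, and 1.21 RPKM in FC/FC and 2.47, 1.67, and 1.61 RPKM in F/F libraries (log2 change -0.49, SE 0.15, limma adjusted p = 0.12). Without F/F replicate 1 it was -0.30 (limma adjusted p = 0.18), smaller than that of Foxn1 in all libraries. Foxj1, the master regulator of motile cilia, had 2.21, 2.09, and 2.04 RPKM of H3K4me1 in FC/FC and 2.71, 2.43, and 2.72 RPKM in F/F libraries (-0.30, SE 0.06, limma adjusted p = 0.067). All FC/FC values lay below all F/F values at both genes, and both passed by limma-voom only. With Foxn1 and Foxp1 they made 4 of 20 Fox genes with this pattern (18.7% of all genes tested), while 0 had the opposite (11.8%). Part of the Foxj1 window overlaps Rnf157. Foxs1 had a log2 change of -0.26 (limma adjusted p = 0.14) and Foxd4 one of 0.27 (limma adjusted p = 0.21), and their genotypes overlapped for H3K4me1.

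For H3K4me2, Foxd4 had 1.16, 1.08, and 1.05 RPKM in FC/FC and 0.822, 0.741, and 0.925 RPKM in F/F libraries, with no overlap (log2 change 0.37, SE 0.08, limma adjusted p = 0.065). It was over 1 RPKM in its 3 FC/FC libraries alone, so the filter on low values admitted it through the genotype in which it is high, and neither this test nor its pass under quantile normalization is support for a difference. Without FC/FC replicate 1 it could not be tested. Foxh1 had 5.79, 4.91, and 5.53 RPKM in FC/FC and 7.35, 5.94, and 6.57 RPKM in F/F libraries, also with no overlap (-0.29, SE 0.09, limma adjusted p = 0.11, and -0.33 with an adjusted p of 0.027 without FC/FC replicate 1). Foxf2, a gene of gut and craniofacial mesenchyme, had 6.35, 5.27, and 5.05 RPKM in FC/FC and 4.84, 4.14, and 4.90 RPKM in F/F libraries (0.26, SE 0.10, limma adjusted p = 0.15, and 0.16 without FC/FC replicate 1). Foxl2, the granulosa cell factor of the ovary, had 3.29, 2.56, and 2.24 RPKM in FC/FC and 2.37, 1.93, and 2.31 RPKM in F/F libraries, with overlap (0.27, SE 0.14, limma adjusted p = 0.24, and 0.12 without FC/FC replicate 1). In all, 2 of 25 Fox genes lay wholly above (Foxd4, Foxf2; 27.2% of all genes tested) and 2 wholly below (Foxh1, Foxn1; 8.43%). Without FC/FC replicate 1, 3 of 24 lay wholly above (Foxf2, Foxk2, Foxn2; 43.5%) and 9 wholly below (Foxd2, Foxe3, Foxf1, Foxh1, Foxj1, Foxj2, Foxk1, Foxm1, Foxn1; 16.3%). Foxe3, needed in the lens, shows how far 1 library can carry a value: its H3K4me2 was 2.70, 1.125, and 1.34 RPKM in FC/FC and 1.63, 1.52, and 2.19 RPKM in F/F libraries, a log2 change of -0.13 (limma adjusted p = 0.79) that was -0.49 without FC/FC replicate 1 (limma adjusted p = 0.033) and 0.11 without FC/FC replicate 2.

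For H3K4me3, Foxf2 and Foxm1 were the Fox genes with no overlap between genotypes. Foxf2 had 2.37, 1.97, and 2.49 RPKM in FC/FC and 1.93, 1.64, and 1.82 RPKM in F/F libraries (log2 change 0.32, SE 0.10, limma adjusted p = 0.95), 1 of 16 wholly above (3.41% of all genes tested). Its summed H3K4me3 promoter peaks were wider in FC/FC cells too, as given above. Foxm1 had 3.01, 2.74, and 2.90 RPKM in FC/FC and 3.41, 3.12, and 3.38 RPKM in F/F libraries (-0.19, SE 0.06, limma adjusted p = 0.99), 1 of 16 wholly below (3.87%). The Foxm1 window overlaps those of Rhno1 and 4933413G19Rik. Of the 16 Fox genes tested, 13 had positive H3K4me3 changes (57.8% of all genes tested), the next largest at Foxb2 (0.27, SE 0.16), Foxq1 (0.27, SE 0.18), and Foxf1 (0.22, SE 0.18), all with a limma adjusted p of 0.99 and overlapping genotypes.

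**Figure D5:**
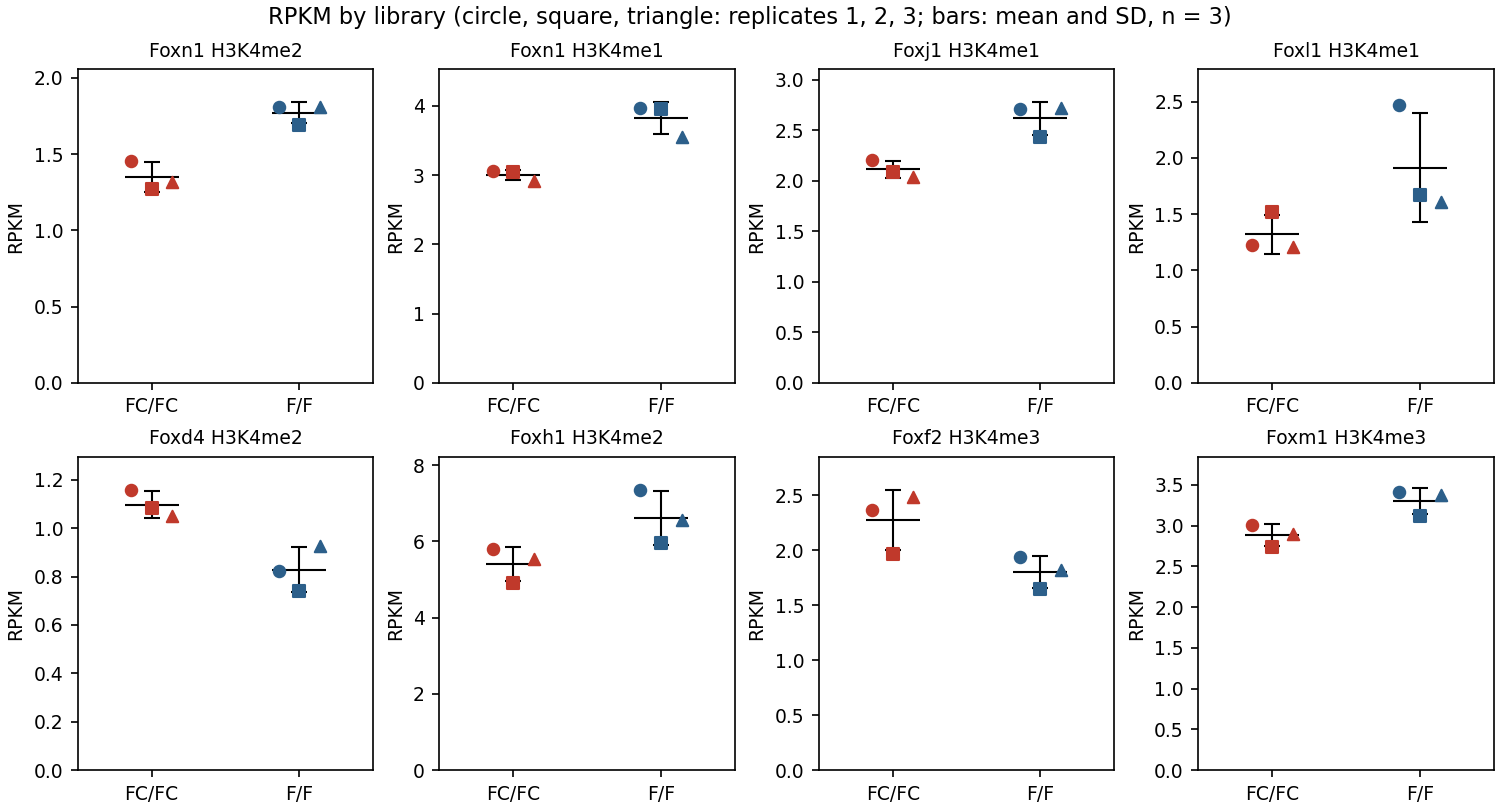
RPKM in each of 3 FC/FC (red, left) and 3 F/F libraries (blue, right) for 8 pairs of gene and mark whose genotypes do not overlap. Bars are means and SD (n = 3), y axes start at 0, and all FC/FC points lie below the F/F points for Foxn1 (H3K4me1 and H3K4me2), Foxj1, Foxl1, Foxh1, and Foxm1, and above them for Foxd4 and Foxf2. Foxd4 passed the filter on low values through its FC/FC libraries alone.

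The FoxO genes had near-equal levels. Foxo1 had 1.68 ± 0.06 RPKM of H3K4me2 in FC/FC and 1.70 ± 0.03 RPKM in F/F cells, and Foxo3 had 2.08 ± 0.16 RPKM in FC/FC and 2.07 ± 0.06 RPKM in F/F cells (SD, n = 3 each). Foxo4 had 2.87 ± 0.18 RPKM of H3K4me2 in FC/FC and 2.79 ± 0.01 RPKM in F/F cells (SD, n = 3 each). For H3K4me1 and H3K4me2, log2 changes of the FoxO genes tested ran from -0.03 to 0.04 with SE of 0.04 to 0.06. Without H3K4me2 FC/FC replicate 1, those of H3K4me2 were 0.0078 at Foxo1, -0.05 at Foxo3, and -0.0097 at Foxo4 (limma adjusted p = 0.91, 0.44, and 0.88). For H3K4me3 they were 0.08 at Foxo1, 0.18 at Foxo3 (SE 0.08), and 0.08 at Foxo4, all with overlap and a limma adjusted p of 0.99. Foxo6 was below the filter for every mark.

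Whether a change differed between marks was tested in 1 fit of all 18 libraries. Of 5812 genes, 0 differed between H3K4me2 and H3K4me1 or between H3K4me3 and H3K4me2 (0.0%), and 1 between H3K4me3 and H3K4me1 (0.0172%), which is not a Fox gene. The fit held 10 of 44 Fox genes, those that passed the filter for every mark, and Foxn1, Foxl1, Foxd4, and Foxh1 were not among them. The Fox gene with the smallest p was Foxj1, whose H3K4me3 change exceeded its H3K4me1 change by 0.39 (SE 0.14, limma adjusted p = 0.39).

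Several members lie in clusters, and their neighbors can be compared. Foxf1, Foxc2, and Foxl1 lie within 100 kb on chromosome 8, with start sites at 121084386, 121116171, and 121127685. Foxf1, which acts in lung and gut mesenchyme, had 1.62, 1.11, and 1.395 RPKM of H3K4me3 in FC/FC and 1.502, 0.946, and 1.07 RPKM in F/F libraries. Foxl1 had 0.423 ± 0.080 RPKM of H3K4me3 in FC/FC and 0.370 ± 0.0941 RPKM in F/F cells (SD, n = 3 each). The H3K4me3 region at Foxl1, however, ends 608 bp upstream of its start site, outside the 500 bp of flank. Its level therefore leaves out the promoter peak called in all 6 libraries, and does not compare its promoter mark with that of Foxc2. Over transcript and flank alone, Foxc2 stood above both neighbors. On chromosome 13, Foxq1, a gene of hair and stomach mucosa, had 2.22, 1.46, and 2.59 RPKM of H3K4me3 in FC/FC and 1.90, 1.53, and 1.63 RPKM in F/F libraries, near the level of Foxf2. On chromosome 4, Foxe3 had 0.542, 0.370, and 0.792 RPKM of H3K4me3 in FC/FC and 0.494, 0.270, and 0.530 RPKM in F/F libraries, well under its neighbor Foxd2. Foxq1, Foxf1, Foxd2, and Foxe3 overlapped between genotypes for all marks. For H3K4me2, Foxq1 had 7.71, 5.44, and 4.82 RPKM in FC/FC and 5.83, 4.77, and 6.10 RPKM in F/F libraries. Foxf1 had 2.89, 1.66, and 1.52 RPKM of H3K4me2 in FC/FC and 2.34, 1.69, and 2.07 RPKM in F/F libraries, and Foxd2 had 7.03, 3.99, and 4.33 RPKM in FC/FC and 5.42, 4.43, and 5.06 RPKM in F/F libraries. At each of these 3 genes FC/FC replicate 1 was the highest of 6, and without it the log2 changes were -0.11 at Foxq1, -0.33 at Foxf1, and -0.25 at Foxd2 (limma adjusted p = 0.43, 0.061, and 0.052).

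Around the start sites, peak regions, each joined from the peaks of all 6 libraries for its mark, were mostly shared for H3K4me2 and H3K4me3. For H3K4me1, more regions were variable than were called in all libraries. Within 50 kb of a Fox start site there were 328 H3K4me1 regions, of which 156 were called in all libraries (49.0% of all regions), 168 were variable (49.8%), 2 were lost (0.793%), and 2 were gained (0.43%). Of 228 H3K4me2 regions, 165 were called in all (61.7%), 60 were variable (36.1%), 3 were lost (2.08%), and 0 were gained (0.101%). Of 100 H3K4me3 regions, 75 were called in all (74.7%), 24 were variable (24.7%), 1 was lost (0.531%), and 0 were gained (0.0645%). Foxp1 had the most H3K4me1 regions (19), Foxk1, a repressor of autophagy and starvation genes, the most H3K4me2 regions (15), and Foxh1, in a stretch dense with other genes, the most H3K4me3 regions (11). Foxi1 had no region of any mark in its 100 kb, and Foxb1 and Foxr2 had no H3K4me1 region.

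Scores of the lost and gained regions did not exceed 178, with the exception of one near Foxo6. This H3K4me2 region, chr4:120255686-120256761, lies outside any annotated gene, 30500 bp downstream of the start site of Foxo6. It was called in 0 FC/FC libraries and scored 165, 148, and 341 in F/F libraries. The other lost H3K4me2 regions lay within Rnf157 near Foxj1 (chr11:116372617-116373589; scores 86.1, 85.1, and 141 in F/F) and 39266 bp upstream of the start of the longest Foxp1 transcript, within GENCODE models of Foxp1 and Gm20696 (chr6:99474611-99475712; 70.6, 62.4, and 178). For H3K4me1, the lost regions were the one in Foxn1 and one in Tulp3 near Foxm1 (chr6:128334362-128335497; 84.3, 55.4, and 52.4). The lost H3K4me3 region lay 26869 bp from the start site of Foxe1 (chr4:46371063-46371788; 73.3, 72.5, and 59.0). Without H3K4me2 FC/FC replicate 1, 7 H3K4me2 regions counted as lost.

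Gained H3K4me1 regions lay within Foxf2 (chr13:31628491-31629987, intronic, 2675 bp downstream of the start site; scores 109, 76.0, and 115 in FC/FC) and within Ccdc22 near Foxp3 (chrX:7603799-7604781; 92.8, 62.0, and 54.7 in FC/FC). The first overlaps an H3K4me3 region called in all 6 libraries (chr13:31628519-31630152). The centres of the regions at Foxf2 and Foxo6 are printed as 300 bases of the plus strand of GRCm38, with CpG in capitals, because these are the gained region within a member and the strongest lost one.
Foxf2, chr13:31629090-31629389, plus strand: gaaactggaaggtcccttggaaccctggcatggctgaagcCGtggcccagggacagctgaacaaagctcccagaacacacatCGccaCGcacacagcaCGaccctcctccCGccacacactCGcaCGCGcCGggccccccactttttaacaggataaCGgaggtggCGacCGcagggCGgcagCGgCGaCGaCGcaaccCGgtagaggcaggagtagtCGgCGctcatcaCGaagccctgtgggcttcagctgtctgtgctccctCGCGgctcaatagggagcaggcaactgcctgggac
Foxo6, chr4:120256074-120256373, plus strand: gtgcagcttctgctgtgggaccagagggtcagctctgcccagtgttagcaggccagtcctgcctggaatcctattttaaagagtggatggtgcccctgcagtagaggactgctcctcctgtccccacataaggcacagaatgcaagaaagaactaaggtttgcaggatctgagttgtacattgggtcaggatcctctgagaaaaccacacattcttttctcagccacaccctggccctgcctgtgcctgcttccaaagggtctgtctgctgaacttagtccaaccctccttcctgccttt
The Foxf2 stretch held 23 CpGs, the Foxn1 stretch above 4, and the Foxo6 stretch 0.

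Genes that act with the family were listed by role, and none passed the test for any mark with all libraries. Of all genes tested, 0.0%, 2.14%, and 0.0% passed for H3K4me1, H3K4me2, and H3K4me3. Of 18 upstream regulators of FoxO (insulin and IGF receptors, PI3K, AKT, and 14-3-3 genes among them), 15, 14, and 11 were tested for H3K4me1, H3K4me2, and H3K4me3, with median log2 changes of -0.01, 0.06, and 0.04. The smallest p belonged to Sirt1, a deacetylase of FoxO proteins, for H3K4me1 (2.32, 2.20, and 2.502 RPKM in FC/FC and 2.11, 1.88, and 2.02 RPKM in F/F libraries; log2 change 0.21, limma adjusted p = 0.11). For H3K4me2 it belonged to Igf1r, the IGF1 receptor (1.58, 1.54, and 1.54 RPKM in FC/FC and 1.76, 1.74, and 1.74 RPKM in F/F libraries; -0.16, limma adjusted p = 0.077). At neither did the genotypes overlap. Without FC/FC replicate 1, 5 of 14 passed for H3K4me2, 2 higher in FC/FC (21.3% of all genes tested) and 3 lower (8.55%). Sirt1 was among the higher ones, and Igf1r (-0.17, limma adjusted p = 0.022), Akt2, and Stk4 were the lower ones. The median was 0.07, against 0.06 over all genes tested. For H3K4me3 the smallest p belonged to Irs2, an insulin receptor substrate, with overlap (0.20, limma adjusted p = 0.99).

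Of 20 FoxO targets, 13, 16, and 15 were tested for the marks in the same order, with medians of -0.0007, 0.08, and 0.08. Cdkn1a, which encodes the cell cycle inhibitor p21, had the smallest p for H3K4me2 (10.8, 10.8, and 9.90 RPKM in FC/FC and 9.39, 8.91, and 9.15 RPKM in F/F libraries; 0.20, limma adjusted p = 0.083). It also had the smallest for H3K4me3 (13.5, 14.8, and 14.8 RPKM in FC/FC and 11.6, 13.0, and 13.0 RPKM in F/F libraries; 0.19, limma adjusted p = 0.99), with no overlap for either mark. Without H3K4me2 FC/FC replicate 1, 4 of 16 passed for H3K4me2 (Cdkn1b, Cdkn1a, Ccng2, Cat, all higher in FC/FC; 21.3% of all genes tested passed and were higher). Cdkn1a was then at 0.18 (limma adjusted p = 0.038). For H3K4me1 the smallest p belonged to Gadd45a, a DNA damage response gene, with overlap (0.16, limma adjusted p = 0.20).

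The FoxM1 targets had mostly negative H3K4me3 and mostly positive H3K4me2 changes, a difference that was not tested for the list as a set. Gene by gene, 0 of 5812 genes differed between H3K4me3 and H3K4me2 in the fit of all 18 libraries. That fit held only genes that passed the filter for every mark. For H3K4me3, 16 of 16 were tested and 15 changes were negative (3832 of 9073 over all genes tested). The median was -0.13, against 0.01 over all genes tested, with 4 wholly below (Aurkb, Birc5, Cenpa, Cdc25b; 3.87% of all genes tested) and 0 wholly above (3.41%). For H3K4me2, 15 were tested and 14 changes were positive (75.0% of all genes tested). The median was 0.14, against 0.07, with 11 wholly above (27.2%) and 0 wholly below (8.43%). For H3K4me1, 11 were tested and the median was 0.11, against -0.0029. Birc5, which encodes the mitotic protein survivin, had 8.33, 8.22, and 7.89 RPKM of H3K4me3 in FC/FC and 9.37, 9.49, and 9.54 RPKM in F/F libraries (log2 change -0.21, SE 0.05, limma adjusted p = 0.66). Cks1b, a cyclin-dependent kinase subunit, had 10.03, 10.8, and 10.7 RPKM of H3K4me2 in FC/FC and 9.61, 9.28, and 8.94 RPKM in F/F libraries (0.18, limma adjusted p = 0.090), and Cdc20 had a change of 0.17 for H3K4me1 (limma adjusted p = 0.10). No member of the list passed for any mark with all libraries. Without H3K4me2 FC/FC replicate 1, 3 of 15 passed for H3K4me2, all higher in FC/FC (21.3% of all genes tested passed and were higher). They were Ccnb1, Top2a, and Cks1b, the last at 0.21 with a limma adjusted p of 0.017. The median was 0.12, against 0.06 over all genes tested, and 11 lay wholly above (43.5%).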

How the data were processed

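ChIP-seq of H3K4me1, H3K4me2, and H3K4me3 was analysed in 18 libraries, and 34 of the 52 samples of the series were not used here. Per the labels and methods, base calls came from CASAVA 1.4 and alignments to mm10 from BWA 0.7.10. The deposited RPKM were computed by the authors over RefSeq transcripts with 500 bp of flank. The tables hold 28748 transcripts of 24286 symbols, of which 1352 are under 250 bp. Multiplied by length, 100% of RPKM values were whole reads within 0.01 read. RPKM are relative to reads within transcripts, so they do not show a shift shared by all genes, and long genes dilute promoter signal. Peaks deposited by the authors were called with MACS 1.4.2 per library against H3 (6 controls, each shared by 3 marks). The peak score in the deposited lists is the MACS p-value as -10 log10(p), with a minimum of 50, and depends on depth.

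Genotypes were compared by limma 3.58.1, on log2(RPKM + 0.1) and for genes over 1 RPKM in 3 or more of 6 libraries. The pseudocount understates changes of low genes. The fit was made in R 4.3.3 (mean-variance trend, Benjamini-Hochberg over all genes of the mark, threshold 0.05). The test was also run on simulated data with independent normal noise for each gene and library. These held no shift shared by a whole library. They therefore do not bear on the effect of leaving out H3K4me2 FC/FC replicate 1. Promoters, regions, and sequences were described without a test, in Python 3.11.15 with numpy 2.4.6 and pandas 2.3.3, and plotted with matplotlib 3.10.9. Genes named were those past the threshold, the 5 with the largest change and the 3 with the highest level per mark, those within 100 kb of another member, lost and gained regions, and, per list, the gene with the smallest p. Other members named for peak width, promoter state, or start sites were chosen after their values were seen. The family, the lists, and these rules were chosen with earlier results of these data known. Alternatives were pseudocounts of 0.01 and 1, no filter, the shortest transcript, quantile normalization, centring on medians, no trend, a single fit, limma-voom on recovered reads, peak scores of at least 100, other windows and overlaps, the same number of peaks per library, and leaving out each library. Some genes are counted but not reported here by name.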

Additional observations from a re-analysis of the deposited data

How the results depend on the processing

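Over 29 pairs of a named Fox gene and mark, 429 values under alternatives were computed: 398 kept direction and side of the threshold, 5 were no longer past it, 9 newly passed it, and 17 changed sign, all at changes whose main value did not pass. For H3K4me1, Foxh1 was 0.0398 under quantile normalization. For H3K4me2, Foxd2 was -0.0007 with a pseudocount of 0.01, -0.0683 under quantile normalization, -0.0552 with libraries centred on medians, and -0.0649 by limma-voom. With 1 library left out, the H3K4me2 change ran from -0.25 to 0.15 at Foxd2, from -0.24 to 0.056 at Foxb2, from -0.49 to 0.11 at Foxe3, from -0.33 to 0.12 at Foxf1, and from -0.11 to 0.22 at Foxq1, each time lowest without FC/FC replicate 1. The H3K4me3 change at Foxc2 ran from -0.0225 to 0.0877. The cause of these sign changes was not tested.

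The count of Fox genes past the threshold was 1 for H3K4me1 (Foxn1) under quantile normalization, centring, and the single fit, and 3 (Foxj1, Foxl1, Foxn1) by limma-voom, against 0. For H3K4me2 it was 2 (Foxd4, Foxn1) under quantile normalization, against 1, and 0 to 4 with 1 library left out. Foxd4 passed the filter only through the genotype in which it is high, so its pass is no support for a difference. Over all genes, the H3K4me1 count was 86, 87, 278, and 730 under quantile normalization, centring, the single fit, and limma-voom, against 0. The H3K4me2 count was 453 with no filter, 347, 434, 437, and 360 under those alternatives in the same order, and 0 to 2954 with 1 library left out, against 214. The H3K4me3 count was 30 in the single fit and 0 to 2 with 1 library left out, against 0. The median H3K4me2 change of all genes was 0.07, and 0.02 under quantile normalization and centring.

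H3K4me1 was constant at 6 Fox promoters within 500 bp of the start site, against 12. With 1 library left out, 0 to 1 Fox promoters lost and 0 to 2 gained H3K4me1. Of regions near Fox genes, lost H3K4me1 regions numbered 1 at a score of at least 100, 1 within 20 kb, 1 with the same number of peaks per library, and 2 to 9 with 1 library left out, against 2. Gained H3K4me1 regions numbered 0 at a score of at least 100, 1 within 20 kb, 4 at an overlap of 50% of the region, and 2 to 5 with 1 library left out, against 2. Lost H3K4me2 regions numbered 8 at a score of at least 100, 0 within 20 kb, 1 with the same number of peaks, and 3 to 10 with 1 library left out, against 3. Gained H3K4me2 regions numbered 2 with the same number of peaks and 0 to 2 with 1 library left out, against 0. Lost H3K4me3 regions numbered 0 at a score of at least 100, 0 within 20 kb, 0 with the same number of peaks, 2 at an overlap of 50%, and 1 to 3 with 1 library left out, against 1. Gained H3K4me3 regions numbered 0 to 1 with 1 library left out, against 0. The alternatives that allowed any GENCODE M21 or deposited start site, and that gave widths of H3K4me2 promoter peaks without FC/FC replicate 1 (17 Fox promoters wider, against 6), were chosen after seeing the data. No paired analysis was possible because the labels give no replicate numbers shared between genotypes. Fox genes under the filter could not be tested, and 3 libraries per genotype limit the precision of every change.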
